A study of Xenopus laevis with 15 samples.

Results

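Transcript levels of 3 regulators of the early ectoderm, sox2, sox9 and eya1, were followed in whole Xenopus laevis embryos that had been exposed to 0.1% ethanol (vehicle), to NRX204647 at 10 nM or to NRX204647 at 1 µM. They are the rows of the deposited expression table whose symbol is exactly sox2, sox9 or eya1, 1 gene model each (Xelaev18002672m.g, Xelaev18002418m.g and Xelaev18003614m.g), or 3 of 45099 gene models. NRX204647 is a ligand of retinoic acid receptors that per the labels acts on the gamma subtype alone at 10 nM and on the alpha, beta and gamma subtypes at 1 µM. Exposure ran from stage 6 to stage 18, a neurula stage at which the neural plate is folding. Each group had 5 libraries of 5 embryos each. The labels name no second dish of 25 embryos for any group, so dish and dose cannot be told apart and the p-values measure the spread between aliquots.

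The ectoderm of a neurula is divided into the neural plate, the neural crest at its border, the preplacodal region around the front of the plate, and the epidermis. The SoxB1 transcription factor Sox2 marks neural progenitors throughout the plate. Sox9, a SoxE transcription factor, acts in crest progenitors and in the otic placode of Xenopus. Eya1 is a phosphatase and transcriptional coactivator that works with homeodomain proteins in the preplacodal region and in sense organs. Retinoic acid, bound by heterodimers of its receptors with retinoid X receptors, is known to posteriorize the neural plate of this species and to limit anterior tissues.

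In embryos kept in 10 nM NRX204647, sox2 transcripts were 3.57-fold lower than in vehicle embryos. It was the only one of the 3 genes to pass the test at that dose. Of all gene models tested, 10.3% were called lower there and 13.0% higher. The sox2 call rested on few reads and was lost in 1 of 26 other settings, without the 5 libraries of least depth. At 1 µM, sox9 was 2.17-fold higher than in vehicle embryos, while sox2 was 1.99-fold lower and eya1 1.28-fold lower. The sox9 rise passed in all of 26 other settings of the test, whereas sox2 was not called in 14 and eya1 in 10. Between the doses, sox9 was 2.80-fold higher at 1 µM, and sox2 and eya1 did not pass. These folds are ratios of mean FPKM (fragments per kilobase of gene model scaled to library size, a level per length).

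**Figure D1:**
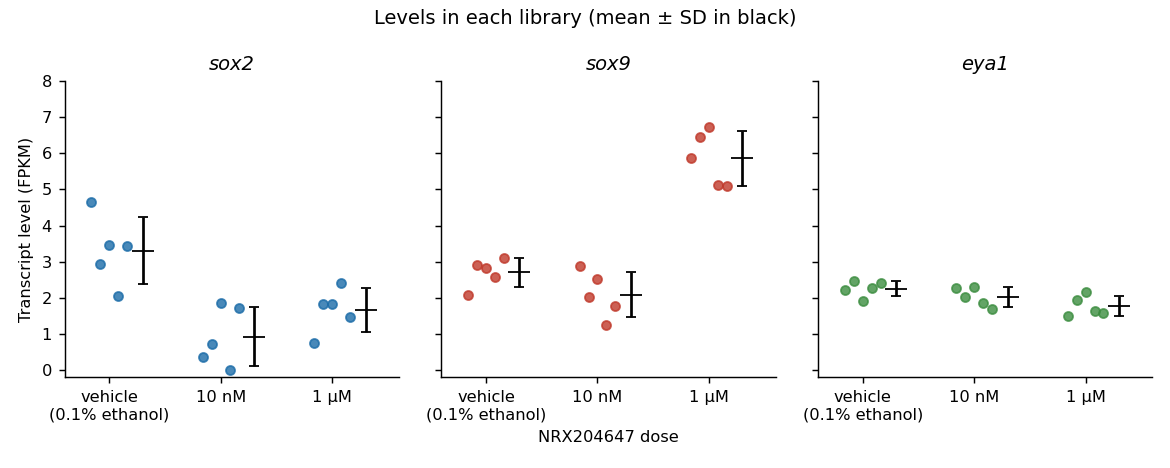
Level of sox2, sox9 and eya1 (FPKM, vertical axis) in each of 5 libraries per group by NRX204647 dose (horizontal axis); points are libraries and black bars the mean ± SD. The 5 sox9 values at 1 µM, from 5.09 to 6.74 FPKM, lie above all other sox9 values, and the 5 sox2 values at 10 nM, up to 1.86 FPKM, lie below all those of vehicle.

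The neural plate gene sox2 was measured at 4.64, 2.95, 3.45, 2.06 and 3.42 FPKM in the vehicle libraries, in replicate order. The 10 nM libraries had 0.360, 0.71, 1.86, 0 and 1.71 FPKM, and the 1 µM libraries 0.743, 1.84, 1.84, 2.40 and 1.48 FPKM. The 10 nM and vehicle libraries did not overlap, whereas at 1 µM replicate 4 lay above vehicle replicate 4. The mean was 3.30 ± 0.934 FPKM with vehicle, 0.927 ± 0.822 FPKM at 10 nM and 1.66 ± 0.610 FPKM at 1 µM (SD, n = 5 each). Among the 13192 gene models tested (those averaging 1 FPKM or more over all 15 libraries), the sox2 mean stood above 57.6% with vehicle, 4.15% at 10 nM and 23.9% at 1 µM. As gene models under that average were left out, a group mean below 1 FPKM ranks low in part through this filter.

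Few reads stood behind the sox2 levels. Read numbers were worked out from FPKM for the 97.9% of tested gene models whose values are whole multiples of a common unit, sox2, sox9 and eya1 among them. Those of sox2 were 10 to 31 per vehicle library, 0 to 12 per 10 nM library and 8 to 20 per 1 µM library. Of these 15 numbers, 14 were even, so a recovered unit may be less than a whole read and the numbers are upper limits. In 10 nM replicate 4 sox2 is listed at 0, which was taken to allow up to 3 reads. These would correspond to 0.594 FPKM if a unit is a read, or to 1.19 FPKM if 1 read makes 2 units. This limit covers counting error only.

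At 10 nM the difference of sox2 from vehicle on the log2(FPKM + 1) scale, which understates changes of low genes, was -1.24 ± 0.27 (SE, 95% interval -1.81 to -0.67, limma adjusted p = 0.00464). Only 0.432% of the tested gene models (57) had a lower value in this comparison. Calls were made at an adjusted p under 0.05 over all tested gene models. Without the 5 libraries whose depth was under 0.4 of that of the deepest library, the difference was -1.25 but the call was lost (limma adjusted p = 0.0882, the highest of 26 other settings, which began at 0.00205). The remaining libraries then held 0.360, 0 and 1.71 FPKM at 10 nM against 2.06 and 3.42 FPKM with vehicle. Their lack of overlap follows from that of the full groups and adds nothing to it.

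At 1 µM the sox2 difference from vehicle was -0.70 ± 0.27 (95% interval -1.27 to -0.13, limma adjusted p = 0.0436), and 5.07% of tested gene models had a lower one. Leaving out 1 of 9 libraries ended this call, with a limma adjusted p of 0.116 without 1 µM replicate 1, 0.103 without vehicle replicate 1, 0.0747 without vehicle replicate 5 or 1 µM replicate 5, 0.0735 without vehicle replicate 3, 0.0592 without 1 µM replicate 3, 0.0591 without 1 µM replicate 2, 0.0587 without vehicle replicate 2 and 0.0509 without 10 nM replicate 2. Without the shallow libraries, which left vehicle replicates 4 and 5 and every 1 µM library, the sox2 difference was -0.50 (limma adjusted p = 0.301). The limma adjusted p ranged from 0.0115 to 0.301 in 26 other settings. Rescaled FPKM gave a larger fall, -0.77 with median-of-ratios scaling and -0.81 with quantile normalization. With a common sum of FPKM without the most abundant gene model, the fall was -0.87. Between 1 µM and 10 nM sox2 differed by 0.54 ± 0.27 (95% interval -0.03 to 1.11, limma adjusted p = 0.163), so neither an equal level nor a rise to 1.11 is outside the interval.

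The crest gene sox9 had 2.09, 2.91, 2.84, 2.56 and 3.11 FPKM in the vehicle libraries and 2.87, 2.02, 2.52, 1.25 and 1.78 FPKM in the 10 nM libraries. The 1 µM libraries had 5.88, 6.46, 6.74, 5.13 and 5.09 FPKM. All 5 of the 1 µM values lay above all 10 of the others, and the 10 nM and vehicle values overlapped. Means were 2.70 ± 0.396 FPKM with vehicle, 2.09 ± 0.631 FPKM at 10 nM and 5.86 ± 0.753 FPKM at 1 µM (SD, n = 5 each). The level rested on 45 to 556 recovered units per library, again upper limits for reads. A sox9 unit was worth 0.0116 FPKM in the deepest library against 0.0919 FPKM for sox2, so their numbers cannot be compared. The sox9 mean stood above 49.8% of tested gene models with vehicle, 38.7% at 10 nM and 72.1% at 1 µM.

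At 1 µM sox9 rose by 0.89 ± 0.13 over vehicle on the log2(FPKM + 1) scale (SE, 95% interval 0.61 to 1.17, limma adjusted p = 7.06e-05). Of the tested gene models 9.44% had a larger positive difference. The difference between 1 µM and 10 nM was 1.17 ± 0.13 (95% interval 0.88 to 1.45, limma adjusted p = 1.04e-05), and only 2.13% of tested gene models exceeded it. Both differences passed in each of 26 other settings, with limma adjusted p up to 0.00683 against vehicle and up to 0.000512 against 10 nM. Rescaled FPKM gave a smaller rise over vehicle, 0.79 with median-of-ratios scaling and 0.75 with quantile normalization. It was 0.69 with a common sum of FPKM without the most abundant gene model. At 10 nM the sox9 difference from vehicle was -0.28 ± 0.13 (95% interval -0.56 to 0.01, limma adjusted p = 0.143). It passed in 1 of 26 settings, when libraries were scaled to a common sum of FPKM that left out the most abundant gene model (-0.41, limma adjusted p = 0.0270, in a range up to 0.329).

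The vehicle libraries of the preplacodal gene eya1 had 2.23, 2.47, 1.91, 2.26 and 2.41 FPKM, the 10 nM libraries 2.28, 2.03, 2.30, 1.84 and 1.68 FPKM, and the 1 µM libraries 1.5, 1.93, 2.16, 1.64 and 1.58 FPKM. Values of all groups overlapped. Means were 2.25 ± 0.218 FPKM with vehicle, 2.03 ± 0.268 FPKM at 10 nM and 1.76 ± 0.277 FPKM at 1 µM (SD, n = 5 each). The SD was 9.67%, 13.2% and 15.7% of the mean, against 28.3%, 88.7% and 36.8% for sox2 and 14.7%, 30.2% and 12.9% for sox9 in the same order of dose.

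At 1 µM the eya1 difference from vehicle was -0.24 ± 0.09 (SE, 95% interval -0.43 to -0.05, limma adjusted p = 0.0377), and 22.7% of tested gene models had a lower one, so the change was small among all gene models although it passed. Leaving out 1 of 7 libraries ended the call, with a limma adjusted p of 0.0938 without 1 µM replicate 1, 0.0832 without 1 µM replicate 5, 0.0811 without vehicle replicate 2, 0.0786 without vehicle replicate 5, 0.0734 without 1 µM replicate 4, 0.0640 without vehicle replicate 4 and 0.0556 without vehicle replicate 1, in a range from 0.000721 to 0.107 over 26 settings. Rescaled FPKM gave a larger fall at 1 µM, -0.31 with median-of-ratios scaling and -0.33 with quantile normalization. With the common total, the sum of FPKM without the most abundant gene model, the fall was -0.41. At 10 nM the eya1 difference from vehicle was -0.11 ± 0.09 (95% interval -0.30 to 0.08, limma adjusted p = 0.413). Between 1 µM and 10 nM it was -0.13 ± 0.09 (95% interval -0.32 to 0.06, limma adjusted p = 0.312). The difference at 10 nM passed with the common total (-0.23, limma adjusted p = 0.0454, in a range up to 0.656). The one between doses passed when recovered units were tested with limma's voom (-0.33, limma adjusted p = 0.0449, in a range up to 0.609). An eya1 unit was worth 0.00228 FPKM in the deepest library, against 0.0919 FPKM for sox2. It may be less than a read, as may the units of sox2 and sox9, and voom may then overstate the precision of each gene.

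**Figure D2:**
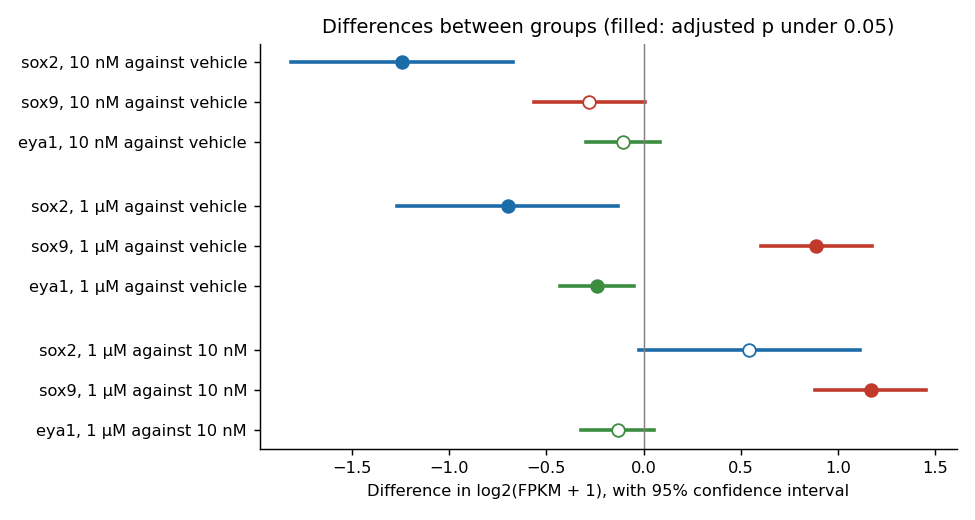
Difference in log2(FPKM + 1) for each gene and comparison (points) with its 95% confidence interval (lines); filled points have a limma adjusted p under 0.05. The intervals of sox9 at 1 µM lie above 0 (0.61 to 1.17 against vehicle), and that of sox2 at 10 nM lies below 0 and is wider (-1.81 to -0.67).

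Set against all tested gene models, 1 of the 3 genes was called lower at 10 nM than with vehicle, where 10.3% of tested gene models were called lower, and none was called higher (13.0% of gene models), with unadjusted limma p of 0.0539 for sox9 and 0.249 for eya1. At 1 µM 2 of 3 were called lower (16.6%) and 1 of 3 higher (28.9%). Between the doses 1 of 3 was called higher at 1 µM (16.1%) and none lower (7.72%), with an unadjusted limma p of 0.153 for eya1, the gene with the negative difference. Libraries that did not overlap were found lower at 10 nM for sox2, as for 5.92% of gene models (higher for none of the 3, against 8.12%). At 1 µM against vehicle they were higher for sox9, as for 20.7%, and lower for none of the 3, against 11.4%. At 1 µM against 10 nM they were higher for sox9, as for 12.5%, and lower for none, against 6.06%. With 3 genes these counts describe the genes and are no evidence about ectodermal regulators as a group.

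**Figure D3:**
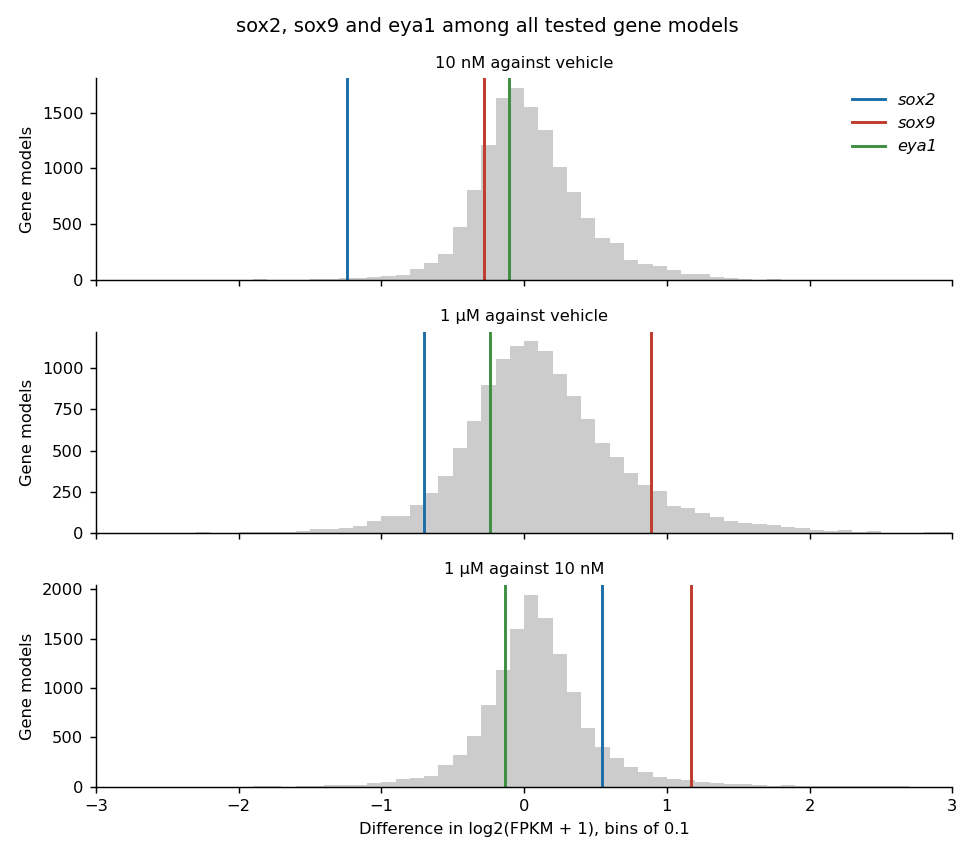
Number of gene models (vertical axis, bins of 0.1) by difference in log2(FPKM + 1) (horizontal axis) in each comparison, with sox2, sox9 and eya1 as coloured lines; values beyond 3 on either side are not drawn. The sox2 line at 10 nM lies at -1.24, with 0.432% of gene models below it, and the sox9 line between the doses at 1.17, with 2.13% above it.

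The order of the genes within a library also differed between groups. Levels of sox2 exceeded those of sox9 in 4 of 5 vehicle libraries, 0 of 5 at 10 nM and 0 of 5 at 1 µM. The sox9 level exceeded that of eya1 in 4 of 5 vehicle libraries, 3 of 5 at 10 nM and 5 of 5 at 1 µM. These differences of level are per length and do not depend on how libraries are scaled. By mean level, the order was sox2, sox9, eya1 in vehicle embryos, with overlapping ranges for all 3. It was sox9, eya1, sox2 at either dose, with the ranges of all 3 overlapping at 10 nM and those of eya1 and sox2 overlapping at 1 µM (1.76 and 1.66 FPKM).

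A ratio within a library is likewise free of library scaling. The ratio of sox9 to eya1 was 0.937 to 1.49 in vehicle libraries, 0.680 to 1.26 at 10 nM and 3.12 to 3.92 at 1 µM. All 1 µM libraries lay above all others. The ratio of sox2 to eya1 was 0.912 to 2.08 with vehicle, 0 to 1.01 at 10 nM and 0.496 to 1.47 at 1 µM, and each dose overlapped vehicle. For sox2 to sox9 it was 0.804 to 2.22 with vehicle, 0 to 0.958 at 10 nM and 0.127 to 0.469 at 1 µM, with no overlap of 1 µM and vehicle. A ratio shows that the genes changed unequally, not which of them changed. Ratios with sox9 reuse the sox9 values, which alone were higher without overlap at 1 µM than with vehicle, as for 20.7% of tested gene models. How often ratios of other gene pairs separate in this way was not worked out.

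Depth and composition moved with the groups. The depth relative to the deepest library averaged 0.535 ± 0.259 with vehicle, 0.455 ± 0.143 at 10 nM and 0.839 ± 0.189 at 1 µM (SD, n = 5 each), and 1 gene model took 32.3 ± 8.07%, 24.5 ± 6.00% and 20.5 ± 5.06% of all FPKM in the same order. Their part in the differences was not tested beyond the settings given. Of the calls, 55.8% were higher at 10 nM, 63.5% at 1 µM and 67.5% between the doses. Those shares were 54.9%, 51.8% and 50.1% with median-of-ratios scaling, 44.8%, 44.7% and 47.6% with quantile normalization, and 27.7%, 39.0% and 55.1% with the common total. In whole embryos, fewer cells of a type and less RNA per cell cannot be told apart.

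The 3 genes were not alike across the 15 libraries. Pearson's r of log2(FPKM + 1) was 0.15 for sox2 with sox9, 0.32 for sox2 with eya1 and -0.30 for sox9 with eya1, given as a description because libraries of 1 group share their dose. After each group's mean was removed, r of sox9 with eya1 was 0.65, against 0.16 and 0.12 for sox2 with sox9 and with eya1. Both genes of each such pair come from the same library and share its depth and scaling.

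Among 313 other tested gene models with a usable symbol, those most like sox2 over the 15 libraries were ino80 (r = 0.89), the ATPase of a chromatin remodelling complex, srrt (0.86), which acts in nuclear RNA processing, the Wnt co-receptor gene lrp6 (0.75), gigyf1 (0.73) and cherp (0.72). The ino80 level was 3.12 ± 0.493 FPKM with vehicle, 1.97 ± 0.445 FPKM at 10 nM and 2.18 ± 0.389 FPKM at 1 µM. After group means were removed, r with sox2 was 0.76 for ino80, 0.68 for srrt, 0.32 for lrp6, 0.35 for gigyf1 and 0.52 for cherp. The median r with sox2 over the 313 was 0.04.

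Most like sox9 were fam129b and msn-like (both r = 0.92), ctage5 (0.89), which acts in export from the endoplasmic reticulum, the axon guidance receptor gene robo3 (0.87) and sptan1 (0.87), for a spectrin of the membrane skeleton. The robo3 level was 4.32 ± 0.518 FPKM with vehicle, 4.49 ± 0.860 FPKM at 10 nM and 7.70 ± 0.836 FPKM at 1 µM. The median r with sox9 was 0.23. For eya1 the closest were asb6 and rdh10 (both 0.71), ier5l (0.70), smarca5 (0.70), the ATPase of ISWI remodellers, and stox1 (0.68), over a median of -0.05. After group means were removed, r for the 5 genes nearest sox9 was 0.31 to 0.48 and for those nearest eya1 0.36 to 0.51.

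**Figure D4:**
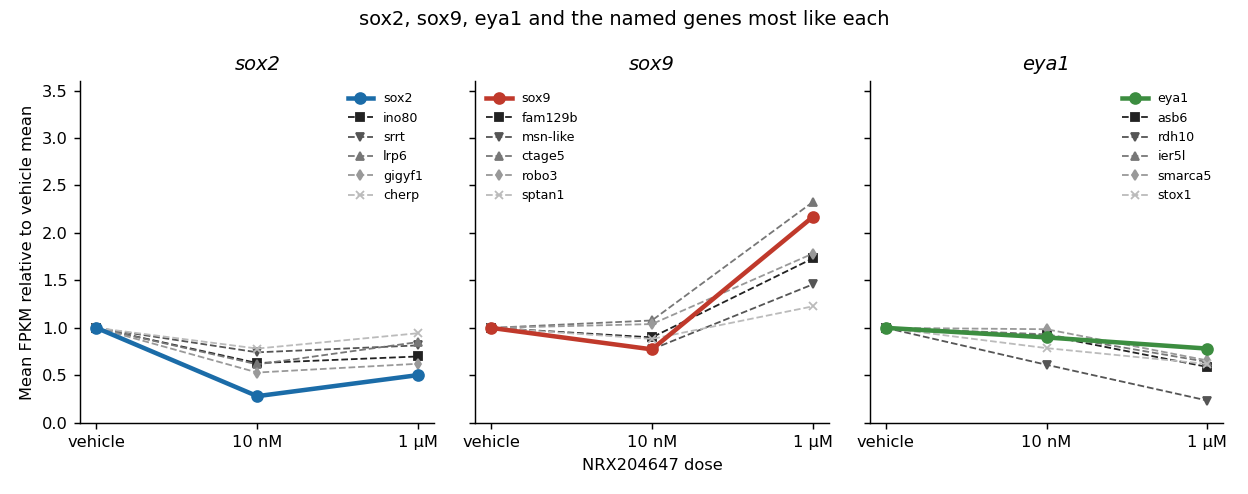
Mean FPKM relative to the vehicle mean (vertical axis) by dose (horizontal axis) for sox2, sox9 and eya1 (thick lines) and the 5 named genes most correlated with each (dashed lines). The sox9 panel rises between 10 nM and 1 µM, the sox2 panel is lowest at 10 nM, and in the eya1 panel rdh10 falls furthest, to 5.36 FPKM at 1 µM against 22.9 FPKM with vehicle.

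The retinoic acid synthesis gene rdh10 also lies near eya1 in the genome. In the RefSeq annotation of Xenopus_laevis_v10.1, which is not known to be the build of the deposited table, 11 protein-coding genes separate the L copies and 7 the S copies. Identifiers on either side of eya1 carry the symbols lactb2, xkr9, msc and trpa1, and RefSeq places xkr9, msc and trpa1 beside both eya1 copies. Of these, only lactb2 was tested. It was higher at 10 nM than with vehicle (3.22 ± 0.811 against 1.83 ± 0.274 FPKM; difference 0.56 ± 0.12 on the log2 scale, limma adjusted p = 0.00546) and at 1 µM (2.71 ± 0.396 FPKM; 0.39 ± 0.12, limma adjusted p = 0.0183), where eya1 was lower. The xkr9 and trpa1 means were under 0.1 FPKM in every group, and msc is listed at 0 in all 15 libraries. The same look at sox2 and sox9 gave no such match. Identifiers on either side of sox2 carry no symbol, and RefSeq places the L copies of sox2 and ino80 on different chromosomes. An identifier next to sox9 carries the symbol slc39a11, which RefSeq does not list beside either sox9 copy. RefSeq lists L and S copies of sox9 and eya1 and an L copy of sox2. The deposited table pairs each symbol with 1 gene model and does not say which copy it is, so reads of near-identical copies may have been split or shared.

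Few relatives of these genes could be named. Of 202 genes in 9 lists for ectodermal regulators, other tissues and retinoid biology, 8 had a symbol in the table and 7 were tested. Of 51 neural plate genes sox2 alone was present, and of 47 placode genes eya1 alone. The 40 neural crest genes gave sox9 and c3, a complement gene, at 0.141 ± 0.0145 FPKM with vehicle, 0.175 ± 0.0505 FPKM at 10 nM and 0.249 ± 0.0399 FPKM at 1 µM, too low to be tested. No gene of the Sox family other than sox2 and sox9, and no other Eya gene or homeodomain partner of Eya proteins, was present by symbol. The absence of a symbol says nothing about expression, since 43776 gene models carry none.

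Genes of other tissues that had a symbol were the epidermal regulator grhl3 and the muscle receptor subunits chrnd and chrng. The grhl3 level was 18.9 ± 1.35 FPKM with vehicle, 23.7 ± 0.956 FPKM at 10 nM and 15.1 ± 1.12 FPKM at 1 µM. It was called higher at 10 nM and lower at 1 µM, against vehicle (differences 0.31 and -0.31, limma adjusted p = 0.00900 and 0.00357). The chrng level was 6.38 ± 1.26 FPKM with vehicle, 8.54 ± 1.29 FPKM at 10 nM and 5.63 ± 1.32 FPKM at 1 µM, with limma adjusted p of 0.0847 and 0.405. Its neighbour chrnd was lower at 1 µM (3.30 ± 0.705 against 7.81 ± 1.81 FPKM with vehicle, limma adjusted p = 1.51e-05). None of the 16 notochord and endoderm genes had a symbol, so those tissues were not checked by name. The part of a changed tissue makeup in the sox2, sox9 and eya1 values was not tested.

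**Figure D5:**
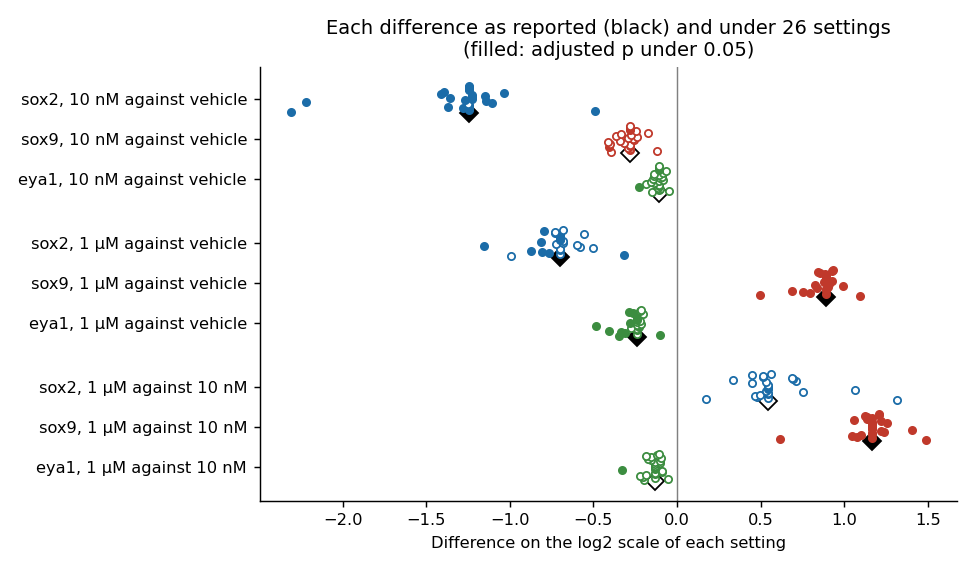
Difference of each gene in each comparison as reported (black diamonds) and under 26 other settings (circles) on the log2 scale of each setting; filled symbols have an adjusted p under 0.05. No difference changed sign, although some settings could not alter the difference itself. Both sox9 differences at 1 µM are filled throughout. Those of sox2 and eya1 at 1 µM against vehicle are filled in 12 and 16 of 26 settings.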

How the data were processed

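The authors deposited 1 table of FPKM values for 45099 gene models and 15 libraries. The submitters' processing notes list TopHat, Bowtie and Cufflinks, with versions, genome build and annotation not given in the sources used here. Per the labels' protocols, amplified cDNA was sequenced as single reads of 50 nt without strand, so reads of antisense or overlapping genes cannot be told apart. For the 13192 gene models averaging 1 FPKM or more, log2(FPKM + 1) was tested in 1 fit of all 3 groups with limma 3.58.1 (trended prior, two-sided, Benjamini-Hochberg) in R 4.3.3. The doses share the vehicle libraries. Relative depth and whole units, each a read or part of one, were recovered from the FPKM steps. All values of 97.9% of tested gene models came out whole within 0.03 units. These units were an alternative, tested with voom for 12921 gene models. Each library holds 5 embryos, and no libraries were pooled. None of 30 replicate pairs was identical (chi-square per degree of freedom of recovered units 5.53 to 19.7). These chi-square values are overstated where a unit is less than a read. The fit was tested on simulated data. No table identifier matched RefSeq (0), and sequences of these genes were not used here. Genes likened to sox2, sox9 or eya1 were the 5 named ones with the highest Pearson's r; of genes in the lists, every measured one could be named. The genes and lists were chosen with earlier results of these data known. Python 3.11.15 with pandas 2.3.3 and matplotlib 3.10.9 was used otherwise.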

Additional observations from a re-analysis of the deposited data

How the results depend on the processing

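No difference of sox2, sox9 or eya1 changed sign in 26 other settings. For sox2 at 1 µM against vehicle the call was lost with a pseudocount of 0.1 (-0.99), without a filter (-0.70), with library weights (-0.58) and without the shallow libraries (-0.50), and ranged from -0.82 to -0.56 with 1 library left out. For eya1 in that comparison it was lost without a filter (-0.24) and without the shallow libraries (-0.28), and ranged from -0.29 to -0.21 with 1 library left out. Leaving out the shallow libraries kept vehicle replicates 4 and 5, 10 nM replicates 1, 4 and 5, and every 1 µM library. With these fewer samples, sox2 at 10 nM was not called (-1.25), and 673 gene models were called at 10 nM against 3074. Calls appeared with the common total for sox9 (-0.41) and eya1 (-0.23) at 10 nM, and with voom for eya1 between the doses (-0.33); the cause was not tested. The median difference of all tested gene models was 0.01 at 10 nM and 0.09 at 1 µM against vehicle as deposited, -0.11 and -0.09 with the common total, and -0.03 and -0.04 with quantile normalization. Deviations of same-numbered libraries from their group means had correlations from -0.11 to 0.11 over 15 pairs, 1 of them over 0.1. With 5 libraries per group, these values cannot settle whether the numbers pair libraries. With the replicate block, sox2 (-0.70, limma adjusted p = 0.0501) and eya1 (-0.24, limma adjusted p = 0.0594) at 1 µM against vehicle passed the threshold no longer, and the count of calls at 10 nM was 2933. The sox2 levels rested on 31 recovered units or fewer per library. Units differ in worth between genes, so these numbers do not rank the genes by how far depth limits them.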
